A study of Danio rerio with 14 samples.

Results

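Isolated H2A.Z peaks are sites of H2A.Z that stand alone in the zebrafish genome, with no other peak starting within 100 kb on either side. They were taken from 2 tables of consensus peaks, one comparing embryos in 5-AzaC with embryos in DMSO and one comparing embryos in TDCIPP with the same DMSO controls. Peaks had to lie on chromosomes 1 to 25, without alternate-locus or unplaced sequences and without chromosome 4 from 25 Mb onwards, where repeats fill the long arm. This left 877 isolated peaks of 29854 in the 5-AzaC table (2.94%) and 883 of 28988 in the TDCIPP table (3.05%). The other 23213 and 22426 peaks of the same chromosome stretches served for comparison.

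H2A.Z is a variant of histone H2A that replaces it in part of the nucleosomes, and is placed by dedicated chromatin remodelling complexes. In many eukaryotes it flanks the start sites of active or poised genes and marks enhancers, and it tends to be absent where DNA is methylated. In early zebrafish embryos nucleosomes that hold H2A.Z are known to occupy unmethylated regulatory DNA before the zygotic genome is switched on.

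Per the labels, embryos of wild type AB/Tuebingen fish were collected 6 hours after fertilization and profiled by CUT&Tag, in which an antibody guides a transposase that cuts and tags nearby DNA. The control group was 3 samples in 0.1% DMSO, the solvent. A second group was 3 samples in 100 µM 5-AzaC (5-azacytidine, a cytidine analogue that traps DNA methyltransferases) from the 1-cell stage, and the last was 2 samples in 3.12 µM TDCIPP (an organophosphate flame retardant) from 0.75 hours. Around 10000 cells from embryos went into each library, so a level is a mean over these cells, and fewer cells with H2A.Z at a site cannot be told apart from less H2A.Z per cell. The labels do not say whether replicates came from separate clutches, so the deposited p-values measure the spread between these samples, which may be technical. Another 6 of the 14 samples, from embryos overexpressing H2A.Z, were not analysed here.

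Only group values were available, so each peak has one DMSO level and one level per treatment, and no value for a single sample. A level is on the log2 scale of normalised reads, and the deposited log2 change is the treated level minus the DMSO level. A peak was called when its deposited FDR was under 0.05. Both comparisons share their DMSO samples, and their values are therefore set side by side without a measure of likeness.

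Isolated peaks were spread over every chromosome. They stood far from their neighbours by the rule that selected them, so the distances describe the selection and are not a result. The nearest other peak started a median of 129 kb away in the 5-AzaC table and 130 kb away in the TDCIPP table, against 14.3 kb and 14.8 kb for the other peaks. Of the isolated peaks, 109 and 113 were more than 200 kb from the nearest one. By chromosome, the isolated share of peaks ran from 2.31% on chromosome 25 to 5.65% on chromosome 9 in the 5-AzaC table, and from 2.63% on chromosome 21 to 5.75% on chromosome 9 in the TDCIPP table. Peaks on alternate-locus sequences were not counted as neighbours of those on the chromosomes.

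**Figure D1:**
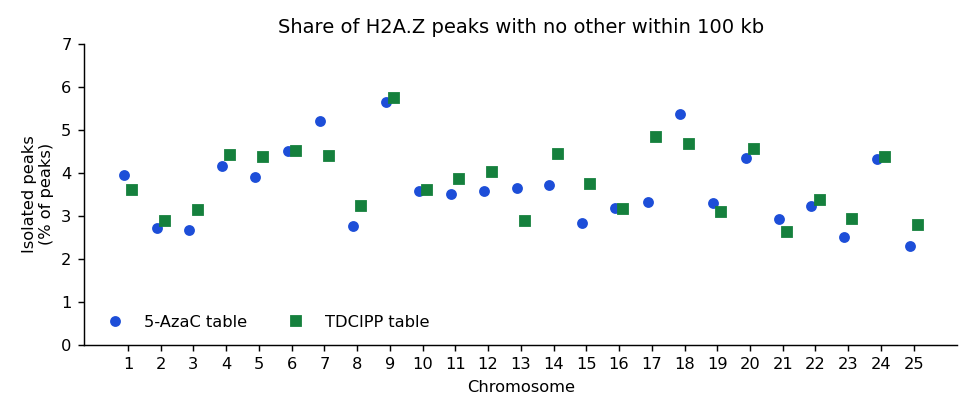
Share of peaks that were isolated (y axis, percent of the peaks considered on each chromosome) for each of the 25 chromosomes (x axis), with circles for the 5-AzaC table and squares for the TDCIPP table. Shares lie between 2.31% and 5.75%, and chromosome 9 has the highest share in both tables.

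The peak farthest from any other lay on chromosome 13 from 16967061 to 16968136, 446 kb from the nearest start. Its neighbour on that side was itself an isolated peak and one of the strongest, on chromosome 13 from 16520773 to 16522793, with a DMSO level of 6.10 per the authors' deposited table. The distant peak was much weaker. Per the authors' deposited table its level was 3.50 in DMSO and 3.08 in 5-AzaC, a log2 change of -0.41 with an FDR of 0.571. For the interval from 16967030 to 16968269 of the TDCIPP comparison, the authors' deposited table gave 3.57 in DMSO and 5.00 in TDCIPP, a log2 change of 1.43 with an FDR of 0.223. Neither difference was called.

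Other remote peaks included one on chromosome 18 from 43040359 to 43041165, 434 kb from the nearest start. Its levels per the authors' deposited table were 4.43 in DMSO and 4.34 in 5-AzaC, with an FDR of 0.828. The next, on chromosome 20 from 11108870 to 11109787 and 432 kb away, had 4.92 in DMSO and 4.05 in 5-AzaC (FDR 0.0973 per the authors' deposited table). A pair of weak peaks completed the 5 in the 5-AzaC table, on chromosome 18 from 28988061 to 28988849 (DMSO level 1.88) and on chromosome 8 from 42238596 to 42239942 (2.82 per the authors' deposited table). In the TDCIPP table the 5 most remote peaks were those on chromosomes 13, 18 (at 28988004) and 8 above, together with one on chromosome 13 from 26251269 to 26251974, 399 kb away, and one on chromosome 12 from 1949746 to 1951982, 387 kb away. The chromosome 13 peak had 3.90 in DMSO and 4.74 in TDCIPP (FDR 0.229 per the authors' deposited table), and the chromosome 12 peak 5.79 and 4.81 (FDR 0.0648 per the authors' deposited table). None of these most remote peaks was called in the table that named it.

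At the boundary of the rule, distances were as follows. In the 5-AzaC table the nearest included peak lay 100010 bp from its neighbour, with levels of 2.37 in DMSO and 2.69 in 5-AzaC. The nearest left out lay 99972 bp away, with 1.43 and 0.68. In the TDCIPP table the corresponding distances were 100059 bp (4.08 in DMSO, 3.38 in TDCIPP) and 100000 bp (2.21 and 1.81).

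Isolated peaks had lower control levels than the other peaks and nearly the same width. Their median DMSO level was 3.32 (interquartile range 2.42 to 4.13) in the 5-AzaC table, or 9.99 normalised reads, against 3.72 (2.87 to 4.55) and 13.2 reads for the other peaks. In the TDCIPP table the medians were 3.36 and 3.73. Of the isolated peaks, 16.0% and 14.7% had a DMSO level under 2, against 8.56% and 8.34% of the others. At the strong end, 7.41% and 7.59% had a DMSO level of at least 5, against 14.8% and 15.1%. Median widths were 774 bp against 791 bp in the 5-AzaC table and 788 bp against 777 bp in the TDCIPP table. The widest isolated peak spanned 4157 bp and the narrowest 247 bp in the 5-AzaC table.

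**Figure D2:**
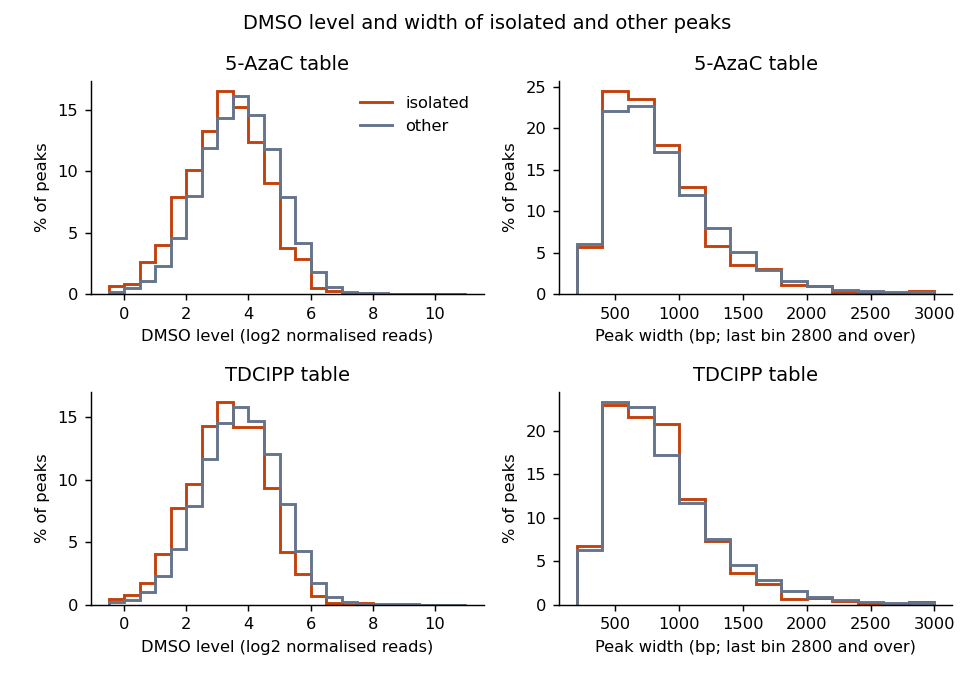
Distribution of the DMSO level (left, log2 normalised reads) and the width (right, bp) of isolated peaks and other peaks, as a percent of each kind of peak (y axes), in the 5-AzaC table (top) and the TDCIPP table (bottom). The level distribution of isolated peaks is shifted to lower values, with medians of 3.32 against 3.72 and 3.36 against 3.73, while the widths nearly coincide.

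The share of peaks that were isolated went down with every step of control level. From the weakest to the strongest quintile of DMSO level it was 5.42%, 4.15%, 3.50%, 3.11% and 2.01% in the 5-AzaC table, and 5.57%, 4.23%, 3.58%, 3.50% and 2.05% in the TDCIPP table. Width gave no such order, though the widest quintile had the lowest share in each table. Across quintiles of width the shares lay between 2.84% and 4.03% in the 5-AzaC table and between 3.27% and 4.22% in the TDCIPP table.

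One isolated peak was far stronger than the rest in control embryos. It lay on chromosome 11 from 17565132 to 17569289, was 4157 bp wide, and had a DMSO level of 7.98 per the authors' deposited table, or 252 normalised reads. The following 4 in the 5-AzaC table had DMSO levels from 6.20 to 6.58. They lay on chromosome 6 from 20407048 to 20408799 (6.58), chromosome 13 from 49443563 to 49445827 (6.5), chromosome 20 from 31742910 to 31745068 (6.24) and chromosome 18 from 19648042 to 19649803 (6.20 per the authors' deposited table). The TDCIPP table gave the same loci except that the peak on chromosome 13 from 16520805 to 16522841 (6.09) took the place of the one at 49443563, which had another peak within 100 kb there. All were wider than the median isolated peak, at 1701 to 4157 bp.

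Isolation depended on the set of peaks in each table. Of the 877 isolated peaks of the 5-AzaC table, 576 (65.7%) overlapped by at least 1 bp a peak that was isolated in the TDCIPP table too, 186 overlapped a peak that had a neighbour there, and 115 overlapped none. The same 576 were 65.2% of the 883 in the TDCIPP table, where 201 overlapped a peak with a neighbour and 106 overlapped none. Isolated peaks found in 1 table were weak in control embryos, with median DMSO levels of 1.59 and 1.71, against 3.50 and 3.56 for isolated peaks with a counterpart. They made up 13.1% and 12.0% of isolated peaks, against 11.6% and 8.59% of the others. With the others weighted to the DMSO level and width of the isolated peaks, their shares were 16.7% and 12.9%, above those of isolated peaks. Other peaks found in 1 table were weak too, with median DMSO levels of 2.23 and 2.0. Both tables share the DMSO samples, so a peak found in 1 table may have entered through its treated samples. The weak control levels of such peaks are then partly set by selection and are not a separate result.

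The comparison of 5-AzaC with DMSO asks how H2A.Z at these lone sites stands in embryos exposed to the cytidine analogue. Levels at isolated peaks were lower in 5-AzaC than in DMSO, with a median of 2.70 against 3.32. The median log2 change per the authors' deposited table was -0.63 (interquartile range -0.97 to -0.20), and it was below 0 in 711 of 877 isolated peaks (81.1%). Over all 29854 peaks of the table the median was -0.70, so that isolated peaks lay 0.07 above the table's own shift. For each compound the deposited values do not show whether such a shift exceeds the spread between libraries.

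At a deposited FDR under 0.05, 54 of the 877 isolated peaks (6.16%) were lower after 5-AzaC and 4 (0.456%) were higher. Of all peaks in the authors' deposited table, 12.5% were called lower and 0.301% higher. An FDR under 1 was given to 57.4% of isolated peaks and to 69.5% of the other peaks, and a peak with an FDR of 1 could not be called. The isolated peaks called lower were among the stronger ones, with a median DMSO level of 4.92 and none under 3.62. The other peaks called lower likewise had a median of 5.13 and none under 3.46. All 54 lower calls had a change below the table's median of -0.70. So did every lower call among all peaks (-0.71 or less), so this is not particular to isolated peaks.

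Set against other peaks of like strength and size, isolated peaks had nearly the same change after 5-AzaC. The other peaks were weighted so that they filled 30 classes of DMSO level and width in the same shares as the isolated peaks. Their median log2 change was then -0.60, a difference of -0.03, and 8.47% of them were called lower, which corresponds to 74.3 of 877 peaks against the 54 observed. For higher calls it corresponds to 1.51 peaks against 4. With peaks of FDR under 1 alone, both medians were -0.72. These differences are descriptions, since peaks of the same libraries are not replicates and no test over samples was possible.

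The change was graded by control level, in isolated and other peaks alike. From the weakest to the strongest quintile of DMSO level, the median log2 change of isolated peaks per the authors' deposited table was -0.11, -0.63, -0.73, -0.79 and -0.85 after 5-AzaC. The other peaks had -0.09, -0.56, -0.73, -0.80 and -0.90. No quintile differed between the kinds of peak by more than 0.07. Within a quintile, the kinds of peak were not matched for width or for the remaining spread of DMSO level. In the strongest quintile 33.3% of 96 isolated peaks and 45.6% of the other peaks were called lower. The DMSO level is also a part of the change, so that its error enters both. Isolated peaks found in the 5-AzaC table alone were weak in DMSO, with a median change of 0.19, against -0.68 for those in both tables. Among the other peaks the corresponding medians were -0.16 and -0.73. Peaks found in 1 table may have entered through their treated samples, so their change is partly set by selection. The part of such peaks in the grading was not tested.

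**Figure D3:**
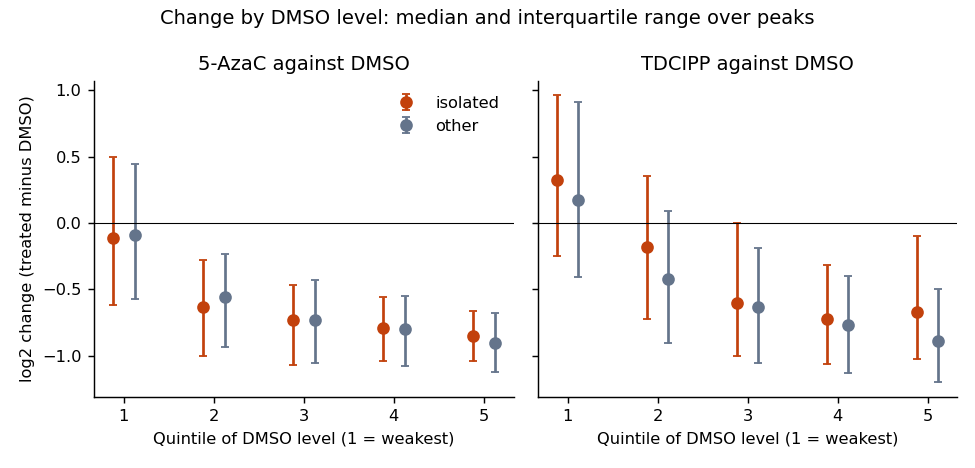
Median log2 change (points) and interquartile range over peaks (bars) by quintile of DMSO level (x axis, 1 is the weakest) for isolated and other peaks, after 5-AzaC (left) and TDCIPP (right). After 5-AzaC the medians nearly coincide in each quintile, from -0.11 to -0.85 for isolated peaks, while after TDCIPP the isolated medians lie above the others, by 0.03 to 0.24. Peaks within a quintile are not matched for width or for the remaining spread of level.

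The 5 largest decreases called after 5-AzaC were at peaks with DMSO levels from 3.72 to 4.27. These were above the median of isolated peaks (3.32) and below that of the isolated peaks called lower (4.92).
The first lay on chromosome 18 from 17146987 to 17147582, with 3.98 in DMSO and 1.99 in 5-AzaC, or 15.8 and 3.97 normalised reads, a log2 change of -2.00 with an FDR of 0.0111 per the authors' deposited table. The peak on chromosome 1 from 4796861 to 4797903 lay 366 kb from its neighbour, and fell from 3.72 to 1.77 (log2 change -1.95, FDR 0.0241 per the authors' deposited table). At the same locus the authors' deposited table gave 3.72 in DMSO and 4.08 in TDCIPP, with an FDR of 0.659. The remaining 3 lay on chromosome 5 from 45322523 to 45323408, chromosome 17 from 34385911 to 34387126 and chromosome 6 from 33536746 to 33537694, with log2 changes of -1.83 (FDR 0.0181), -1.75 (FDR 0.0174) and -1.70 (FDR 0.0189) per the authors' deposited table. At the loci on chromosomes 18, 5, 17 and 6 the log2 changes after TDCIPP were -1.28 (FDR 0.172), -2.71 (FDR 0.0107), 0.08 (FDR 0.904) and -1.24 (FDR 0.141) per the authors' deposited table, so that 1 of the 5 loci was called lower after TDCIPP. Of all peaks, 5.81% were called lower after TDCIPP. The 5 loci were picked for a large decrease from DMSO samples that both comparisons share.

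The 4 increases called after 5-AzaC formed a weak and a strong pair, and 0 of them were called with Benjamini-Hochberg over all peaks of the table, while at an unadjusted p under 0.05 there were 8 higher isolated peaks. On chromosome 5 from 60518426 to 60518988 the level was 1.67 in DMSO and 3.59 in 5-AzaC, or 3.18 and 12.0 normalised reads, a log2 change of 1.92 with an FDR of 0.0404 per the authors' deposited table. On chromosome 16 from 2272782 to 2273324 it was 1.78 and 3.59, a log2 change of 1.81 with an FDR of 0.0365 per the authors' deposited table. Both rest on few control reads, so the size of their change is imprecise. The strong pair held the strongest isolated peak of all, on chromosome 11, whose level was 8.58 in 5-AzaC against 7.98 in DMSO (log2 change 0.60, FDR 0.0406 per the authors' deposited table). Its partner lay on chromosome 18 from 9245020 to 9245624, 604 bp wide, with 5.69 against 4.79 (log2 change 0.91, FDR 0.0411 per the authors' deposited table). After TDCIPP the chromosome 11 peak had 8.04 against 7.93 (FDR 0.826 per the authors' deposited table), a difference that was not called. At the loci on chromosomes 5, 16 and 18 the log2 changes after TDCIPP were 0.95, 0.66 and 0.86, none of them called. Of all peaks, 1.21% were called higher after TDCIPP.

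**Figure D4:**
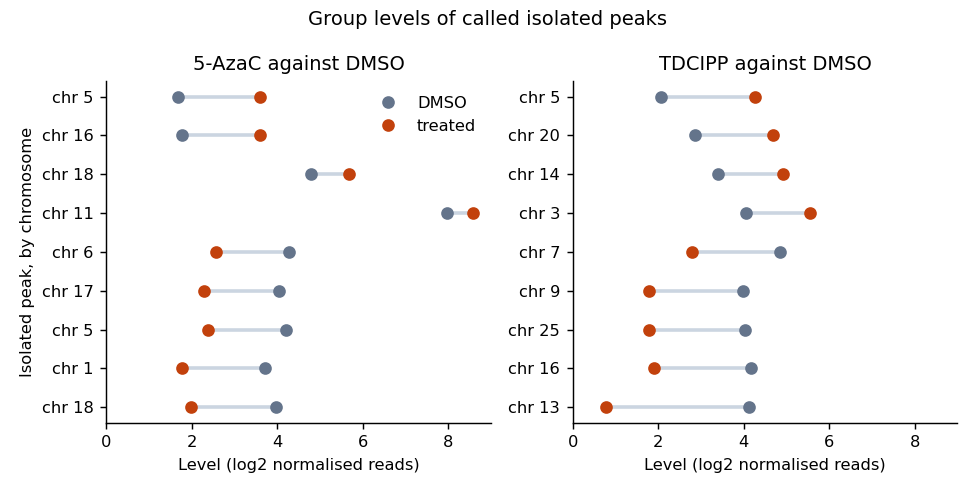
DMSO and treated group levels (x axis, log2 normalised reads) of the isolated peaks with the 5 largest decreases and the 4 increases called after 5-AzaC (left) and TDCIPP (right), each labelled by its chromosome (y axis). The chromosome 11 peak stands at 7.98 and 8.58, and the chromosome 13 peak after TDCIPP has the longest line, from 4.13 to 0.78.

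The comparison of TDCIPP with DMSO asks the same of embryos exposed to the flame retardant. Isolated peaks had a median level of 3.11 in TDCIPP against 3.36 in DMSO. The median log2 change per the authors' deposited table was -0.30 (interquartile range -0.83 to 0.39), against -0.53 over all 28988 peaks and -0.58 over the other peaks of the same chromosome stretches. The change was below 0 in 556 of 883 isolated peaks (63.0%) and in 74.4% of the other peaks. Relative to the table's own median, isolated peaks lay 0.23 higher, and the other peaks differed from it by -0.05.

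Calls were few at lone sites after TDCIPP. By the FDR of the authors' deposited table, 25 of the 883 isolated peaks (2.83%) were lower and 4 (0.453%) higher, where 5.81% and 1.21% of all peaks were. An FDR under 1 was given to 51.3% of isolated peaks and to 61.2% of the others. The 25 lower calls had a median DMSO level of 4.67 and a median change of -1.87 on the log2 scale per the authors' deposited table. All lay below the table's median change of -0.53, as did every lower call among all peaks (-0.92 or less). The 25 were found on 16 of 25 chromosomes, with 5 on chromosome 7.

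At like DMSO level and width the isolated peaks still had the smaller median decrease after TDCIPP, a difference for which no test over samples was possible. The weighted median of the other peaks was -0.45, so that isolated peaks lay 0.15 higher. Among the weighted other peaks 68.5% had a change below 0, against 63.0% of isolated peaks. The treated levels differed accordingly, with a median of 3.11 at isolated peaks and 3.02 at the weighted other peaks. The difference was 0.13 among peaks found in both tables and 0.09 among peaks with an FDR under 1. It stayed between 0.13 and 0.18 when each chromosome was left out in turn. Leaving out a chromosome keeps the same libraries, so this range measures nothing over samples. Weighted other peaks called lower corresponded to 37.5 of 883 against the 25 observed, and those called higher to 8.73 against 4. The TDCIPP group held 2 samples, and a difference between those libraries and the DMSO libraries cannot be told apart from one between treatments.

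Going up the quintiles of DMSO level, isolated peaks had median log2 changes after TDCIPP of 0.32, -0.18, -0.60, -0.72 and -0.67 per the authors' deposited table. The other peaks had 0.17, -0.42, -0.63, -0.77 and -0.89. The isolated median was the higher one in each quintile, by 0.14, 0.24, 0.03, 0.05 and 0.22. Within a quintile, isolated and other peaks were not matched for width or for the remaining spread of DMSO level. Isolated peaks found in the TDCIPP table alone, also weak in DMSO, had a median change of 0.62, against -0.40 for those in both tables. Among the other peaks the corresponding medians were 0.41 and -0.63. Peaks found in 1 table may have entered through their treated samples, so their change is partly set by selection. The part of such peaks in the medians by quintile was not tested. In the strongest quintile 12.6% of 95 isolated peaks and 23.9% of the other peaks were called lower. Chromosome by chromosome, without weighting, the isolated median lay above that of the other peaks on 22 of 25 chromosomes after TDCIPP and on 19 of 25 after 5-AzaC. Chromosomes of the same libraries are not replicates, so these counts measure nothing over samples. At like DMSO level and width the difference after 5-AzaC was -0.03, in the other direction. Without weighting, chromosome 10 had the highest isolated median after TDCIPP, at 0.28 over 31 peaks, against -0.58 for its other peaks. It is the extreme of 25 medians over few peaks each, and the lowest was -0.63 on chromosome 13.

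The deepest decrease called at an isolated peak after TDCIPP left fewer than 2 normalised reads. On chromosome 13 from 39995478 to 39996135 the level was 4.13 in DMSO and 0.78 in TDCIPP, or 17.5 and 1.72 normalised reads, a log2 change of -3.36 with an FDR of 0.00181 per the authors' deposited table. Over nearly the same interval the level was 2.66 in 5-AzaC against 4.13 in DMSO (log2 change -1.47, FDR 0.0382 per the authors' deposited table). The next 4 had similar control levels, from 3.99 to 4.84, and log2 changes from -2.27 to -2.05. They lay on chromosome 16 from 27818044 to 27818647 (log2 change -2.27, FDR 0.0200), chromosome 25 from 27405706 to 27406494 (-2.24, FDR 0.0236), chromosome 9 from 15207676 to 15208166 (-2.19, FDR 0.0189) and chromosome 7 from 3870368 to 3871556 (-2.05, FDR 0.00397) per the authors' deposited table. At these loci, in order, the log2 changes after 5-AzaC were -1.46 (FDR 0.177), -2.04 (FDR 0.0126), -1.46 (FDR 0.0369) and -1.16 (FDR 0.0395). That on chromosome 16 was not called after 5-AzaC, and the rest were called lower, where 12.5% of all peaks were. These loci were picked for a large decrease from DMSO samples that both comparisons share. Lower calls in the second comparison are thus partly set by selection.

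The 4 isolated peaks called higher after TDCIPP were other loci than those called higher after 5-AzaC. Of all peaks, 1.21% were called higher for TDCIPP and 0.301% for 5-AzaC, so a lack of shared calls says little. The largest increase was at a narrow peak of 315 bp on chromosome 5 from 70717589 to 70717904, with 2.06 in DMSO and 4.26 in TDCIPP, or 4.17 and 19.2 normalised reads (log2 change 2.20, FDR 0.0381 per the authors' deposited table). On chromosome 20 from 17324140 to 17325026 the level was 2.86 in DMSO and 4.69 in TDCIPP (log2 change 1.83, FDR 0.0237 per the authors' deposited table). The peak on chromosome 14 from 28916104 to 28916821 had 3.40 and 4.91 (log2 change 1.51, FDR 0.0367), and that on chromosome 3 from 56358262 to 56359446 had 4.04 and 5.54 (log2 change 1.5, FDR 0.0169 per the authors' deposited table). At the overlapping peaks of the 5-AzaC comparison the authors' deposited table gave log2 changes of 0.26, -0.64, -0.33 and -0.90, none of them called.

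Some peaks that were isolated in both tables were called lower in each comparison. Ranked by the larger of its FDRs in the 2 tables, the first lay on chromosome 2 from 12847306 to 12848633, 209 kb from its neighbour. Its level was 5.60 in DMSO and 4.01 in 5-AzaC, or 48.5 and 16.1 normalised reads (log2 change -1.59, FDR 0.00116 per the authors' deposited table). Over the interval from 12847301 to 12848787 it was 5.64 in DMSO and 4.0 in TDCIPP (log2 change -1.64, FDR 0.00363 per the authors' deposited table). On chromosome 23 from 38496768 to 38497803 the log2 changes were -1.38 for 5-AzaC (FDR 0.0106) and -1.98 for TDCIPP (FDR 0.00441 per the authors' deposited table). On chromosome 16 from 39858514 to 39859858, a peak with a DMSO level of 5.84, it was -0.94 (FDR 0.0193) and -1.72 (FDR 0.00154 per the authors' deposited table). For chromosome 7 from 65755847 to 65757558 the values were -1.12 (FDR 0.0120) and -1.29 (FDR 0.0231 per the authors' deposited table). The fifth, on chromosome 9 from 15207690 to 15208346, had -1.46 (FDR 0.0369) and -2.19 (FDR 0.0189 per the authors' deposited table). Each pair of values subtracts the same DMSO samples.

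Among the strongest control peaks, that on chromosome 6 at 20407048 was not called in either comparison. Its level of 6.58 in DMSO stood against 5.46 in 5-AzaC (FDR 0.0939) and 5.10 in TDCIPP (FDR 0.0836 per the authors' deposited table). The peak on chromosome 20 at 31742910 was called lower in each, with 5.42 against 6.24 after 5-AzaC (FDR 0.0448) and 5.06 against 6.29 after TDCIPP (FDR 0.0190 per the authors' deposited table). The peak on chromosome 18 at 19648042 had 5.46 against 6.20 after 5-AzaC (FDR 0.0743) and was called lower after TDCIPP, with 5.14 against 6.20 (FDR 0.0385 per the authors' deposited table). At 49443563 on chromosome 13, levels were 5.51 against 6.5 after 5-AzaC (FDR 0.0123) and 5.46 against 6.5 after TDCIPP (FDR 0.0433 per the authors' deposited table). That peak was thus called lower in each comparison, and had a neighbour within 100 kb in the TDCIPP comparison. The chromosome 13 peak at 16520773 was called after 5-AzaC, with 5.10 against 6.10 (FDR 0.00968), and had 5.47 against 6.09 after TDCIPP (FDR 0.260 per the authors' deposited table).

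The change was also followed over the distance to the nearest peak, in 8 classes. After 5-AzaC the median log2 change was nearly level, from -0.72 at 10 to 20 kb to -0.61 at 150 to 200 kb, and it was -0.63 for the 109 isolated peaks beyond 200 kb. After TDCIPP it was -0.52 within 5 kb, -0.56 at 5 to 10 kb, -0.64 at 10 to 20 kb, -0.59 at 20 to 50 kb and -0.48 at 50 to 100 kb per the authors' deposited table. For isolated peaks it was -0.33 at 100 to 150 kb, -0.35 at 150 to 200 kb and -0.08 for the 113 peaks beyond 200 kb. Relative to all other peaks of like DMSO level and width, those classes lay 0.14, 0.11 and 0.25 higher, while the class at 50 to 100 kb lay 0.02 higher and that at 20 to 50 kb differed by -0.06. Peaks within 5 kb of another also lay above their like peaks, by 0.12 after TDCIPP and 0.07 after 5-AzaC. Of the 113 peaks beyond 200 kb, 6 (5.31%) were called lower after TDCIPP, against 3.37% of like peaks and 5.81% of all peaks. The classes at 100 to 150 kb and 150 to 200 kb went the other way. They held 14 lower calls (2.42% against 4.1%) and 5 lower calls (2.6% against 5.04%). With so few calls, these shares are imprecise. The median DMSO level went from 3.93 within 5 kb to 2.94 beyond 200 kb in the TDCIPP table, and its part in the unweighted medians was not tested.

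**Figure D5:**
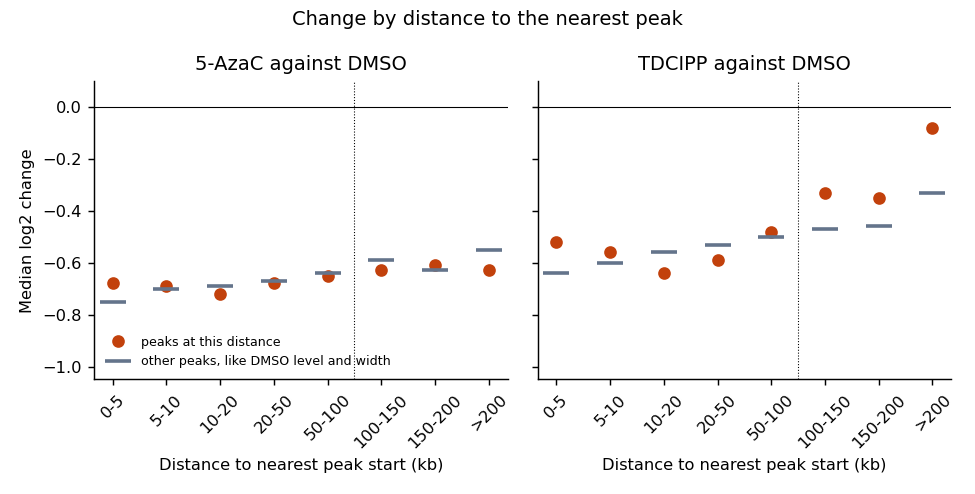
Median log2 change (y axis) of peaks in 8 classes of distance to the nearest peak start (x axis, kb), as circles, with the median of all other peaks at like DMSO level and width as bars, after 5-AzaC (left) and TDCIPP (right). Right of the dotted line are the isolated peaks, which after TDCIPP lie 0.11 to 0.25 above the bars, and after 5-AzaC within 0.08 of them.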

How the data were processed

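CUT&Tag libraries for H2A.Z came from zebrafish embryos in DMSO, 5-AzaC or TDCIPP, and samples were grouped by their titles. The submitters' processing notes name Bowtie2, Picard, MACS2, deepTools, DiffBind and the build GRCz11, without role or order. Per the file headers, the authors deposited for each consensus peak a log2 level over all samples and per group, a log2 change, a p-value and an FDR. The scaling, the test and the depth of the libraries are not given in the sources used here. Coordinates are as deposited, and whether starts count from 0 or 1 is not stated. The FDR was 1 for 9841 and 11807 peaks. The deposited log2 change equalled the difference of group levels to within 0.01.

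Distances were measured between starts, and width as end minus start. For comparisons at like level and width, other peaks were weighted to the isolated peaks over 10 bins of DMSO level by 3 of width. The median difference from this step was tried on made-up changes added to the real levels and widths. Those changes held no error shared with the DMSO level, and the weighted shares of calls were not tried in this way. A call is a deposited FDR under 0.05, and its direction is the sign of the deposited change. No test of one kind of peak against another was made, since tables without per-sample values allow none over samples. Members, comparisons and alternatives were chosen with earlier results of these data known. Named peaks are the 5 lowest and 5 highest changes among calls, the 5 highest DMSO levels and 5 largest distances of each table. A further 5 were isolated and called in both tables, ranked by the larger of their FDRs. The designed description of gene starts, gene lists and sequence was not made, because no genome or annotation of GRCz11 was used here. Python 3.11.15, numpy 2.4.6, pandas 2.3.3 and scipy 1.17.1 were used.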

Additional observations from a re-analysis of the deposited data

How the results depend on the processing

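No paired analysis was possible because a group has a single value per peak, and for the same reason no replicate was left out and no other scaling was tried. The share of peaks at gene starts and its alternatives were not run. Depth is unknown, and peaks with an FDR of 1 could not be called. The comparison restricted to peaks in both tables and the other bin numbers were chosen after seeing the data.

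Counts of calls followed the threshold. For 5-AzaC, an FDR of 0.01 left 8 lower and 0 higher isolated peaks, 0.1 gave 131 lower, and Benjamini-Hochberg over all peaks gave 0 higher, where 8 were higher at an unadjusted p under 0.05. For TDCIPP, 0.01 left 5 lower and 0 higher (27 higher at an unadjusted p under 0.05), and 0.1 gave 60 lower and 11 higher. A distance of 50 kb made 3262 and 3355 peaks isolated, with 305 lower for 5-AzaC and 149 lower and 13 higher for TDCIPP. At 200 kb, 109 and 113 remained isolated, with 6 lower and 1 higher for 5-AzaC and 6 lower and 0 higher for TDCIPP (0 higher at an unadjusted p under 0.05 too). Counting neighbours from both tables left 656 isolated TDCIPP peaks, 2 of them higher. Over all peaks at an FDR under 0.05, 12.5% (5-AzaC) and 5.81% (TDCIPP) were called lower, and 0.301% and 1.21% higher. At an unadjusted p under 0.05, 1.02% and 4.11% of all peaks were higher, against 0.912% and 3.06% of isolated peaks. Shares over all peaks at an FDR of 0.01 or 0.1, or with Benjamini-Hochberg, are not given here, so those counts stand without a comparison.

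The median log2 change of isolated peaks was above 0 only when taken relative to the median of all peaks, at 0.07 for 5-AzaC and 0.23 for TDCIPP. For 5-AzaC it was otherwise -0.72 among peaks with an FDR under 1, -0.68 among peaks in both tables and -0.53 as a mean. For TDCIPP it was -0.52 and -0.40 in those sets, -0.45 at 50 kb and -0.08 at 200 kb.

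At like level and width, the difference between isolated and other peaks was -0.03 for 5-AzaC. It turned to 0.01 with the mean level in place of the DMSO level and was -0.08 at 200 kb. For TDCIPP, at 0.15, it stayed above 0 under each of 9 alternatives, and was 0.04 at 50 kb and 0.25 at 200 kb. The causes were not tested.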

Other observations

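Many isolated peaks followed each other along a chromosome. A gap of over 100 kb beside an isolated peak is also a gap of the next peak, so the rule itself favours runs. Their counts describe the selection and are not a result. Of those in the 5-AzaC comparison, 419 of 877 stood in 173 runs of at least 2 consecutive isolated peaks, and 403 of the 883 of the TDCIPP comparison stood in 171 runs. The longest runs of the 5-AzaC table held 6 peaks each, on chromosomes 2, 9, 12 and 18. The run on chromosome 18 from 42071489 to 43639342 spread 6 peaks over 1570 kb, with DMSO levels from 1.43 to 4.43 and log2 changes from -1.18 to 0.47. That on chromosome 12 from 11811051 to 12772713 held DMSO levels from 0.87 to 5.66 and log2 changes from -1.22 to 1.29, with 1 peak called lower after 5-AzaC. In the TDCIPP table the longest run lay on chromosome 5 from 49376104 to 50371648, with 6 peaks, DMSO levels from 2.40 to 5.00 and log2 changes from -2.44 to 0.25. Strong and weak peaks thus stood in the same sparse stretches.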
